A study of Mus musculus with 24 samples.

Results

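The genes that hydroxylate and cross-link collagen were followed in sorted mouse mammary carcinoma cells. They are the 3 alpha subunits of collagen prolyl 4-hydroxylase (P4ha1, P4ha2 and P4ha3), the 3 lysyl hydroxylases (Plod1, Plod2 and Plod3) and 4 lysyl oxidases (Lox, Loxl1, Loxl2 and Loxl3). They were taken by symbol, without regard to case, as 10 of the 24034 symbols that all 3 count tables hold. RNA was sequenced from 24 libraries of cells of 3 Balb/c mammary carcinoma lines, 4T07, D2A1 and EMT6, grown as tumours in female Balb/cJ mice. Every tumour arose from 250000 cells that carried mCherry and the mVenus-p27K reporter, in which a fluorescent protein is joined to a modified p27, an inhibitor of cell division, so that resting cells become bright. The mammary fat pad was the site of injection, and day 14 the time of harvest. From each of 4 tumours per line a p27K high gate, which the labels describe as quiescent cancer cells, and a p27K negative gate, described as proliferative, were sorted, so that each of the 6 groups has 4 libraries. All groups carry both reporters, and no group without them was analysed here. Each line was sequenced in a run of its own, so line and run cannot be told apart.

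Collagen chains are modified in the endoplasmic reticulum before they are secreted. Prolyl 4-hydroxylases, tetramers of alpha subunits with the P4hb subunit, hydroxylate proline residues so that the triple helix is stable at body temperature, and lysyl hydroxylases modify lysine residues in the helix and in the telopeptides. Lysyl oxidases are secreted copper enzymes that oxidise lysine and hydroxylysine residues, after which collagen and elastin cross-link. The hydroxylases need oxygen, iron, 2-oxoglutarate and ascorbate, and several of these genes are known targets of hypoxia-inducible factor (HIF), which binds DNA at the core letters ACGTG or GCGTG.

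Libraries held 27887221 to 45460880 counts in 4T07 and 13769682 to 20142013 in EMT6. In the p27K high gate D2A1 libraries held 6727594 to 20174767, whereas the negative libraries of tumours 1, 2 and 3 only 1335433 to 2110563, against 15641189 for tumour 4. The p27K high library of 4T07 tumour 2 stood apart with 13500 genes detected, where the other 3 of its group had 15094 to 15370. The gates differed as labelled. Cdkn1b, which encodes p27, was higher in the p27K high gate by 0.89 (log2) in 4T07, 0.46 in D2A1 and 0.54 in EMT6, and the count of Cdkn1b can include reads of the reporter. The proliferation marker Mki67 changed by -6.52, -5.92 and -5.31 (log2) and was lower in 12 of 12 tumours. Cell type markers moved with the gates too. Summed macrophage markers (13 of 13 genes lower in 4T07) ranged from 168 to 185 CPM (counts per 1000000 counts of a library) across 4T07 p27K high libraries and from 566 to 1233 CPM across the negative ones. Summed fibroblast markers stood at 1548 to 2380 against 570 to 838 CPM in 4T07, with 4 of 9 tested genes higher and 3 lower, and Dcn, the most abundant in the p27K high gate, made up 1139 of a mean of 1988 CPM there. By the test given below, 22.1% of all genes tested in 4T07 were higher and 23.6% lower. The part of these cell types in the results was not tested.

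P4ha1, P4ha2, Plod1 and Plod2 were higher in the p27K high gate in all 3 lines. The other members differed by line: Lox, Loxl1 and Loxl2 were lower in D2A1, Lox and Loxl1 were higher in EMT6, P4ha3 was lower in 4T07, and Loxl3 was higher in D2A1 and, narrowly, lower in 4T07. Plod3 did not pass the test in any line. All 10 members passed the filter on low counts in every line. That filter asks for a minimum level in only as many libraries as a gate holds, so a gene can pass through a single gate. Lox, Loxl1 and Loxl2 in D2A1, and P4ha3 and Loxl2 in 4T07, passed through their level in the negative gate. At an adjusted p under 0.05 (edgeR's quasi-likelihood test on the counts with the tumour as a block, Benjamini-Hochberg adjustment over all genes tested), 4 members were higher and 2 lower in 4T07, where 22.1% of all genes tested were called higher and 23.6% lower. In D2A1, 5 were higher and 3 lower, against 14.9% and 14.7% of all genes. In EMT6, 6 were higher and 0 lower, against 24.1% and 25.1%. At an unadjusted p under 0.05, edgeR also had 0 lower there, and so had DESeq2 after adjustment. On average over the lines, 5 were higher and 4 lower, against 28.3% and 24%. The median log2 change of the members was 0.40 in 4T07, 0.31 in D2A1 and 0.44 in EMT6, beside medians over all genes tested of 0.00, 0.02 and 0.02. The gates of a line did not overlap for 5 members in 4T07 (4 above and 1 below), 8 in D2A1 (5 above and 3 below) and 5 in EMT6 (5 above). Of all genes tested, the gates were apart with p27K high above for 17.1% in 4T07, 15.3% in D2A1 and 15.0% in EMT6, and with p27K high below for 21.0%, 15.6% and 19.3%. A lower level in sorted bulk RNA can come from fewer cells of a type or from less RNA per cell, which cannot be told apart.

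**Figure D1:**
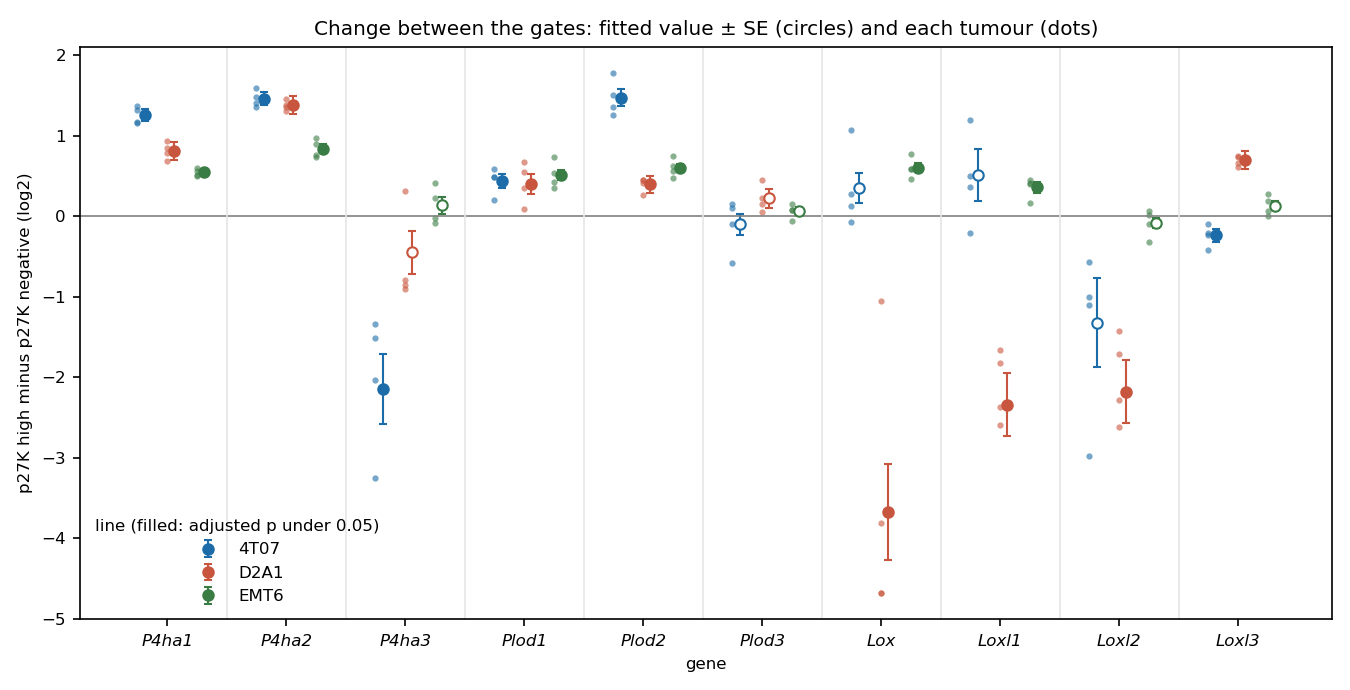
Change of the 10 genes between the gates of a tumour (vertical axis, log2 of p27K high over p27K negative) in 4T07, D2A1 and EMT6. Circles give the fitted value with its SE, filled where the adjusted p is under 0.05, and dots give each of the 4 tumours. P4ha1, P4ha2, Plod1 and Plod2 lie above 0 in every line, while Lox spans from 0.60 in EMT6 to -3.67 in D2A1.

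Promoter sequences of 5 of the 10 genes (P4ha1, P4ha2, P4ha3, Plod1 and Plod3) were found in RefSeq's table for GRCm38.p6, each with 250 bases before and 50 after the start that RefSeq gives. For P4ha2 that start lies 829 bases inside the gene as GENCODE places it, for Plod1 it lies 9 bases from GENCODE's, and for the other 3 the starts are the same. Those of P4ha1 and P4ha2, higher in every line, are shown beside P4ha3 and Plod3, which were not, 5′ to 3′ on the strand of the gene, with each ACGTG or GCGTG on either strand in capitals (on the opposite strand they read CACGT and CACGC).
P4ha1 (chr10:59323046-59323345, plus strand): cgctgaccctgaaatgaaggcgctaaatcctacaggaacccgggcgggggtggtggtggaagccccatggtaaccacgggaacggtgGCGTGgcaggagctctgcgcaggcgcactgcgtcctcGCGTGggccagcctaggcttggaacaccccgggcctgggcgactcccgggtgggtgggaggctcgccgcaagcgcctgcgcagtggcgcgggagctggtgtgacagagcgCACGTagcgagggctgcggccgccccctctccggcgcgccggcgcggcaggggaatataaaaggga
P4ha2 (chr11:54100674-54100973, plus strand): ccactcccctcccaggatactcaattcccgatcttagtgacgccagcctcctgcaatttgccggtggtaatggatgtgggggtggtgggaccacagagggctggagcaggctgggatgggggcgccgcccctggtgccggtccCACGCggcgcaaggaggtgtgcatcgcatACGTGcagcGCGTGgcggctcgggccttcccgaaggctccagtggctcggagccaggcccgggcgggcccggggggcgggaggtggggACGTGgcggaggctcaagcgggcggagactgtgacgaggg
P4ha3 (chr7:100285270-100285569, plus strand): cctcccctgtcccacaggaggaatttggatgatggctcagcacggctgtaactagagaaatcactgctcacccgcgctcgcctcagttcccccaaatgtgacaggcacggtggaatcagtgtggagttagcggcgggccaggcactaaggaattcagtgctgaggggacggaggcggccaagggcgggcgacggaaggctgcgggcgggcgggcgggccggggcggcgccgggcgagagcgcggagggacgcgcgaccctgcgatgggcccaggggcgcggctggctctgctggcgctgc
Plod3 (chr5:136986769-136987068, plus strand): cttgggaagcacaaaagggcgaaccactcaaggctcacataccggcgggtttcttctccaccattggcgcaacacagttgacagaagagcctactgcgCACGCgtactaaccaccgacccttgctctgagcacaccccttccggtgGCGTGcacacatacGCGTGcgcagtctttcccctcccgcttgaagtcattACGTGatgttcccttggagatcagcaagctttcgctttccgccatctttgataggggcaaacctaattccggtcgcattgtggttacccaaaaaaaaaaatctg
P4ha1 held 3 matches (1 of ACGTG), P4ha2 held 4 (2 of ACGTG), Plod3 held 4 (1 of ACGTG) and P4ha3 held 0, and the Plod1 promoter (chr4:147936727-147937026, minus strand) held 2, both GCGTG. No match overlapped another. Of the 32851 promoters of the same length in the table, 19.6% held ACGTG, 32.4% held GCGTG and 43.8% held either. A match is a description of these letters and not a bound site, and the promoter of Plod3, a gene with no called change, held as many matches as that of P4ha2.

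P4ha1 and P4ha2, the catalytic subunits of prolyl 4-hydroxylase found in most tissues, were higher in the p27K high gate in every tumour. In 4T07, P4ha1 stood at 700, 729, 708 and 640 CPM in the p27K high libraries of tumours 1 to 4 and at 313, 282, 315 and 257 CPM in the p27K negative libraries. No p27K negative library reached the lowest p27K high library. The change was 1.25 ± 0.08 (log2, SE, n = 4 tumours; edgeR adjusted p = 2.03e-05), a 2.39-fold difference. In D2A1, P4ha1 stood at 333, 374, 374 and 360 CPM against 207, 217, 196 and 200 CPM, a change of 0.81 ± 0.11 (edgeR adjusted p = 0.000113). In EMT6, whose tumours carry the column numbers 0, 1, 2 and 4, it stood at 510, 462, 473 and 487 CPM against 336, 312, 331 and 345 CPM, a change of 0.54 ± 0.04 (edgeR adjusted p = 6.50e-06). The gates were apart in all 3 lines.

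P4ha2 had a lower level than P4ha1 and a larger fitted change in each line, a comparison between genes that was not tested. Its 4T07 libraries stood at 108, 85.2, 77.0 and 74.8 CPM in the p27K high gate and at 38.9, 28.1, 30.2 and 28.1 CPM in the negative gate, a change of 1.46 ± 0.08 (log2, SE; edgeR adjusted p = 1.41e-05). In D2A1 the p27K high libraries stood at 200, 224, 223 and 229 CPM and the negative libraries at 80.9, 87.5, 85.2 and 83.6 CPM, a change of 1.38 ± 0.11 (edgeR adjusted p = 8.02e-07) in which the 4 tumours lay between 1.30 and 1.45. The negative values of the 3 shallow D2A1 libraries rest on 109 to 187 reads, and that of tumour 4, with 1306 reads, fell among them. In EMT6 the values were 113, 136, 128 and 133 CPM against 57.2, 72.7, 75.7 and 80.3 CPM, a change of 0.84 ± 0.06 (edgeR adjusted p = 2.28e-06).

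P4ha3, a further catalytic subunit, was the least abundant of its family. In 4T07 it was lower in the p27K high gate, at 0.116, 0.446, 0.671 and 0.602 CPM (5 to 19 reads) against 1.62, 1.22, 2.03 and 2.66 CPM (44 to 97 reads). The groups did not overlap, and the change was -2.15 ± 0.44 (log2, SE; edgeR adjusted p = 0.00619), lower in 4 of 4 tumours. Beside this fall, the endothelial marker sum of 4T07 was 2.84 to 5.42 CPM in p27K high and 9.79 to 14.4 CPM in p27K negative libraries, and the macrophage sums given above differed in the same direction; their part in it was not tested. In D2A1 the level of P4ha3 was 4.64 to 8.15 CPM against 6.53 to 12.6 CPM (-0.45 ± 0.27, edgeR adjusted p = 0.238), and in EMT6 5.59 to 17.1 against 5.93 to 17.4 CPM (0.13 ± 0.11, edgeR adjusted p = 0.354). In both lines the gates overlapped. The average over the lines was -0.77 ± 0.16 (edgeR adjusted p = 0.000578) and without 4T07 it was -0.09 (edgeR adjusted p = 0.648), so the call of the average rests on that line.

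**Figure D2:**
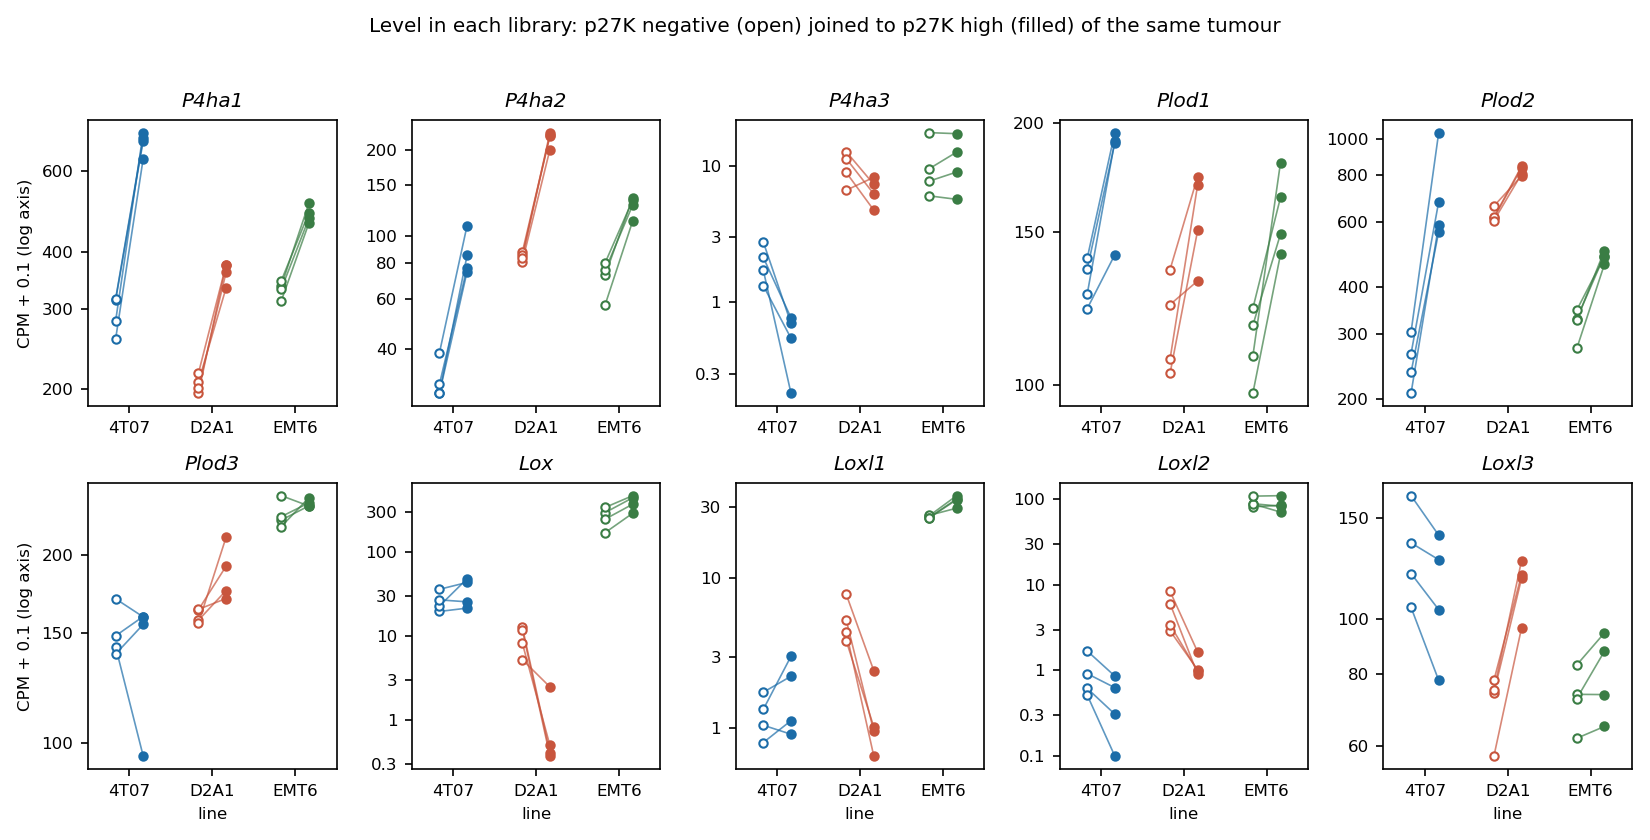
Level of each gene in each of the 24 libraries (vertical axis, CPM + 0.1 on a logarithmic scale, with a range of its own in each panel), by line. Open circles are p27K negative and filled circles p27K high libraries, and a line joins the gates of a tumour. The lines of P4ha1, P4ha2 and Plod2 all slope upward, and those of Lox run upward in EMT6 and downward in D2A1.

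Among the lysyl hydroxylases, Plod2 had the largest fitted change in 4T07 and in EMT6. Plod2 (chr9:92542223-92608428, plus strand, GENCODE on GRCm38) encodes the enzyme that hydroxylates telopeptide lysines, the residues from which hydroxylysine cross-links form. In 4T07 it stood at 678, 1040, 563 and 588 CPM in the p27K high libraries and at 265, 303, 236 and 208 CPM in the negative libraries. The library of tumour 2 was the highest, and its tumour also had the largest difference, 1.78 (log2), with 1.25 to 1.50 in the others. The fitted change was 1.47 ± 0.10 (edgeR adjusted p = 3.82e-05). In D2A1 Plod2 stood at 837, 844, 795 and 805 CPM against 613, 616, 660 and 604 CPM, a change of 0.40 ± 0.11 (edgeR adjusted p = 0.0148). In EMT6 it stood at 460, 486, 501 and 483 CPM against 273, 329, 326 and 347 CPM, a change of 0.60 ± 0.05 (edgeR adjusted p = 1.36e-05). The gates did not overlap in any line. The D2A1 call was lost without tumour 1, 2 or 4 (edgeR adjusted p = 0.108, 0.120 and 0.0645), at changes of 0.38 in each case.

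Plod1, which acts on lysines of the triple helix, differed by a like amount in the lines: 0.44 ± 0.09 in 4T07, 0.40 ± 0.12 in D2A1 and 0.51 ± 0.06 in EMT6 (log2, SE; edgeR adjusted p = 0.00538, 0.0265 and 0.000180). It was higher in the p27K high gate in 12 of 12 tumours. In 4T07 it stood at 195, 141, 190 and 191 CPM against 140, 122, 136 and 127 CPM, so that tumour 2 alone lay near the negative libraries. In EMT6 it stood at 180, 141, 149 and 164 CPM against 108, 97.7, 117 and 122 CPM, and the gates were apart. In D2A1 they overlapped, at 170, 150, 174 and 132 CPM against 107, 103, 136 and 124 CPM, and the call was lost without tumour 1 or 2 (edgeR adjusted p = 0.167 and 0.149). When the change was tested for being equal across lines, the edgeR adjusted p of Plod1 was 0.944, which does not show that the lines respond alike. The differences between lines were 0.01 ± 0.14 (4T07 minus D2A1), -0.05 ± 0.14 (4T07 minus EMT6) and -0.06 ± 0.15 (D2A1 minus EMT6).

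Plod3, a lysyl hydroxylase that also carries glycosyltransferase activity, did not pass the test in any line. Its changes were -0.10 ± 0.13 in 4T07, 0.22 ± 0.11 in D2A1 and 0.06 ± 0.05 in EMT6 (log2, SE; edgeR adjusted p = 0.543, 0.169 and 0.317). In 4T07 it stood at 159, 95.4, 159 and 155 CPM against 170, 143, 148 and 139 CPM. The p27K high library of tumour 2, which had the fewest genes detected, was the only one of its group below all negative libraries, and without that tumour the change was 0.06. In D2A1 all p27K high libraries (170 to 213 CPM) lay above the negative ones (156 to 164 CPM). The EMT6 libraries lay at 239 to 247 CPM and 222 to 248 CPM, with overlap.

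The lysyl oxidases split by line. Lox, the founding member of the family, was abundant in EMT6 and higher in its p27K high gate, at 288, 440, 369 and 466 CPM against 169, 293, 245 and 338 CPM in tumours 0, 1, 2 and 4. The groups overlapped, but each tumour had the higher value in the p27K high gate, by 0.46 to 0.77 (log2). The change was 0.60 ± 0.05 (edgeR adjusted p = 1.87e-05), and without the tumour as a block the edgeR adjusted p was 0.0526. In 4T07, Lox stood at 21.4, 47.9, 25.4 and 43.3 CPM against 19.5, 22.7, 26.8 and 35.9 CPM, a change of 0.35 ± 0.18 (edgeR adjusted p = 0.155). It was higher in 3 of 4 tumours, and tumour 2 had the largest difference, 1.08.

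In D2A1, Lox was close to absent from the p27K high gate. It had 8, 39, 2 and 5 reads there (0.401, 2.39, 0.309 and 0.275 CPM) and 11, 11, 23 and 185 reads in the negative gate (8.17, 5.15, 12.7 and 11.8 CPM). The change was -3.67 ± 0.59 (log2, SE; edgeR adjusted p = 0.000462), or 12.7-fold lower, and it was lower in 4 of 4 tumours. Tumour 2 had the smallest difference, -1.05, and the others -3.81 to -4.68. Tumour 4, the pair with a deep negative library, had -4.68. Without tumour 2 the change was -4.96 (edgeR adjusted p = 1.05e-06) and without tumour 4 it was -3.05 (edgeR adjusted p = 0.00751). Loxl1, which acts in elastic fibre assembly, and Loxl2 went the same way in D2A1. Loxl1 (chr9:58287738-58313186, minus strand) stood at 0.853, 0.919, 2.32 and 0.551 CPM against 5.20, 3.74, 7.75 and 4.29 CPM, a change of -2.34 ± 0.39 (edgeR adjusted p = 0.000546). Loxl2 (chr14:69609068-69695834, plus strand), an oxidase with scavenger receptor domains, stood at 0.803, 0.919, 1.55 and 0.881 CPM against 5.94, 2.81, 8.30 and 3.33 CPM, a change of -2.18 ± 0.39 (edgeR adjusted p = 0.00101). No p27K high library reached the lowest negative library for any of these 3 genes.

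These D2A1 levels are low, and 6 to 15 reads of Loxl1 or Loxl2 make up each value of the 3 shallow negative libraries. In the same libraries the endothelial markers summed to 10.5 to 29.0 CPM in the negative gate and 0.858 to 6.28 CPM in the p27K high gate. Of 8 listed, only Pecam1 and Cdh5 were tested, and both were lower. Their means were 0.807 and 0.649 CPM in the p27K high gate against 4.63 and 4.79 CPM. Both thus passed the filter through their level in the negative gate, which favours a lower call. Of 10 fibroblast markers tested in D2A1, 3 were higher and 4 lower, where 14.9% and 14.7% of all genes tested were. Thy1 changed by -5.00 and Pdpn by -3.92 (log2), both named after their values were seen, while the most abundant, Pdgfra, was higher by 1.07. Thy1 and Pdpn had means of 0.242 and 0.568 CPM in the p27K high gate against 6.71 and 7.68 CPM, so they too passed through the negative gate. Macrophage markers summed to 141 to 180 CPM in p27K high libraries and 75.3 to 131 CPM in negative ones. Cd14 made up a mean of 137 of 153 CPM in the p27K high gate and 61.6 of 95.5 CPM in the negative gate. Of 8 tested macrophage markers only Cd14 was higher (1.12) and 0 were lower, with a median change of -0.94 (log2). Epithelial markers summed to 92.8 to 204 CPM in p27K high and 62.8 to 609 CPM in negative libraries. The part of these cell types in the fall of Lox, Loxl1 and Loxl2 was not tested. Of the T and NK cell markers, Cd3e, Cd3g, Cd2 and Nkg7 were at 0 in all D2A1 libraries.

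Outside D2A1, Loxl1 was higher in the EMT6 p27K high gate, at 35.6, 29.4, 33.9 and 33.5 CPM against 26.0, 26.3, 25.4 and 25.3 CPM. The gates were apart, and the change was 0.36 ± 0.07 (log2, SE; edgeR adjusted p = 0.00222), but in a single fit of all 24 libraries its edgeR adjusted p was 0.0756. In 4T07, Loxl1 stood at 1.02, 0.810, 2.12 and 2.92 CPM against 0.701, 0.945, 1.64 and 1.23 CPM (0.51 ± 0.33, edgeR adjusted p = 0.235). Without tumour 2 it passed the test there (0.74, edgeR adjusted p = 0.0417). Loxl2 in 4T07 had 0 to 24 reads per p27K high library and 15 to 58 per negative library, lower in 4 of 4 tumours (-1.32 ± 0.55, edgeR adjusted p = 0.0885). The library with 0 reads, of tumour 2, allows a level of up to 0.122 CPM (3 counts), and without that tumour the change passed the test (-0.98, edgeR adjusted p = 0.0377). In EMT6, Loxl2 stood at 70.9 to 110 CPM against 81.6 to 109 CPM (-0.08 ± 0.07, edgeR adjusted p = 0.332). Beside the rise of Lox and Loxl1 in EMT6, fibroblast markers summed to 1028 to 1378 CPM in p27K high and 845 to 1146 CPM in negative libraries. Of 7 tested, 4 were higher and 0 lower (edgeR), with 0 lower also at an unadjusted p under 0.05. The most abundant, Acta2, went the other way without passing the test (-0.20, edgeR adjusted p = 0.0971), at means of 442 against 508 CPM. Macrophage markers summed to 45 to 58.7 against 32.2 to 45.9 CPM, with 3 of 6 higher and 1 lower. Of all genes tested in EMT6, 24.1% were called higher and 25.1% lower. The part of these cell types in the rise was not tested.

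Loxl3 (chr6:83034173-83052562, plus strand), a further oxidase with scavenger receptor domains, ran opposite to its relatives in D2A1. It was higher in the p27K high gate there, at 117, 96.3, 119 and 126 CPM against 74.2, 57.5, 78.0 and 75.0 CPM. The groups were apart and the 4 tumours lay between 0.61 and 0.75 (log2), with a fitted change of 0.69 ± 0.11 (edgeR adjusted p = 0.000498). In 4T07 the values were 104, 78.0, 140 and 127 CPM against 120, 105, 164 and 135 CPM. They overlapped, but each tumour was lower in the p27K high gate, and the change of -0.24 ± 0.08 passed the test narrowly (edgeR adjusted p = 0.0471). That call was lost without tumour 1, 3 or 4 (edgeR adjusted p = 0.149, 0.144 and 0.0776) and without the block (edgeR adjusted p = 0.400). In EMT6 Loxl3 did not pass the test (0.13 ± 0.06, edgeR adjusted p = 0.0819). Loxl4, the remaining lysyl oxidase, which is not among the 10 genes, had changes of -0.28, 0.05 and -0.01 and passed the test in no line.

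Because of D2A1, the averages over the lines describe Lox and Loxl1 poorly. The average change was -0.83 for Lox and -0.45 for Loxl1, both called lower. Without D2A1 they were 0.49 (edgeR adjusted p = 0.00145) and 0.48 (edgeR adjusted p = 0.00720), higher. The average of Lox was -1.43 without 4T07 and -1.58 without EMT6. The averages of P4ha1 (0.90), P4ha2 (1.26), Plod1 (0.48) and Plod2 (0.86) stayed positive and called without any 1 line, at 0.71 to 1.06, 1.14 to 1.45, 0.39 to 0.49 and 0.53 to 1.05 over the alternatives run.

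The change between the gates differed between the lines for 8 of the 10 genes (joint fit of 24 libraries, edgeR's quasi-likelihood F test of equal change), where 24.5% of all genes tested did. Plod1 and Plod3 did not pass (edgeR adjusted p = 0.944 and 0.217). For P4ha1 the rise in 4T07 exceeded that in D2A1 by 0.41 ± 0.11 (log2, SE; edgeR adjusted p = 0.0119) and that in EMT6 by 0.73 ± 0.10 (edgeR adjusted p = 0.000338). For P4ha2 the rise in 4T07 and D2A1 differed by 0.05 ± 0.11 (edgeR adjusted p = 0.916), and both exceeded that in EMT6, by 0.64 ± 0.10 and 0.59 ± 0.11 (edgeR adjusted p = 0.000896 and 0.00507). Plod2 rose more in 4T07 than in D2A1 by 1.05 ± 0.13 and than in EMT6 by 0.89 ± 0.13 (edgeR adjusted p = 3.87e-05 and 0.000280), whereas D2A1 and EMT6 differed by -0.15 ± 0.13 (edgeR adjusted p = 0.595). For Lox, the change in 4T07 exceeded that in D2A1 by 3.86 ± 0.54, and D2A1 minus EMT6 was -4.09 ± 0.54 (edgeR adjusted p = 0.000151 and 0.000360), and 4T07 and EMT6 differed by -0.23 ± 0.30 (edgeR adjusted p = 0.656). For Loxl1, too, D2A1 lay below both other lines, with 4T07 above D2A1 by 2.90 and D2A1 minus EMT6 at -2.67, and 4T07 minus EMT6 was 0.23 ± 0.26 (edgeR adjusted p = 7.61e-05, 0.000334 and 0.591). For Loxl3 all 3 pairs differed, with D2A1 above EMT6 by 0.62, 4T07 minus D2A1 at -0.97 and 4T07 minus EMT6 at -0.35 (edgeR adjusted p = 0.00756, 4.53e-05 and 0.0463). For P4ha3, 4T07 minus D2A1 was -1.72 and 4T07 minus EMT6 -2.23 (edgeR adjusted p = 0.00794 and 0.00140).

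Levels of different genes were compared per kilobase of exon sequence. The tables of the lines were scaled separately, so an order of levels holds within a line. P4ha1 and Plod2 held the first and second rank in every group: by all exons P4ha1 led in 4T07 (169 ± 9.31 CPM per kilobase in the p27K high gate, SD, n = 4) and in EMT6 (117 ± 5.06), and Plod2 led in D2A1 (152 ± 4.41, with P4ha1 at 87.6 ± 4.70). In the 4T07 p27K high gate P4ha1 and Plod2 (133 ± 41.0) did not differ beyond their spread. Plod3 had the third rank in both gates of 4T07 and of D2A1, at 31.5 ± 6.92 and 41.5 ± 4.28 in the p27K high gates. In EMT6, the third rank was that of Lox, at 81.8 ± 16.7 in the p27K high gate, within its spread of Plod2 (89.5 ± 3.13), and 54.7 ± 15.1 in the negative gate. In D2A1 p27K high cells it ranked last, at 0.177 ± 0.216. With the longest transcript in place of all exons, 28 of 60 levels moved by more than the spread, P4ha2 by 2.04 times, Plod1 by 1.65, Plod2 by 1.47 and Plod3 by 1.38, and the order changed. Plod2 then led P4ha1 in both gates of EMT6 (132 against 119 and 87.0 against 81.9) and in the 4T07 p27K high gate (196 against 172). The third rank passed to Plod1 in 4T07 p27K high, P4ha2 in D2A1 p27K high and Plod3 in EMT6 negative cells.

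Within each family the balance differed by line. P4ha1 made up 92.4% of the alpha subunit level per kilobase in the 4T07 p27K high gate and 92.7% in the negative gate, 70.2% and 75.0% in D2A1, and 83.0% and 84.6% in EMT6. The share of P4ha2 in D2A1 was 27.8% to 29.0% in the p27K high libraries and 19.3% to 21.3% in the negative libraries, with no overlap. These shares depend on the length used: with the longest transcript, an alternative chosen after seeing the data, P4ha2 made up 43.4% to 44.8% and 31.9% to 34.8%, again with no overlap, and P4ha1 54.5% and 61.6%. Plod2 made up 68.6% of the lysyl hydroxylase level in 4T07 p27K high cells and 47.0% in negative cells, and the share of Plod3 was 17.1% and 33.4%. The share of Plod2 in D2A1 was 70.2% and 68.7%, and in EMT6 53.8% and 46.5%. Among the lysyl oxidases with Loxl4, Loxl3 led in 4T07 (59.8% and 63.6%) and in D2A1 (66.1% and 48.5%), and Lox led in EMT6 (58.8% and 49.8%). In D2A1 Lox made up 0.499% of that level in p27K high cells and 6.19% in negative cells.

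**Figure D3:**
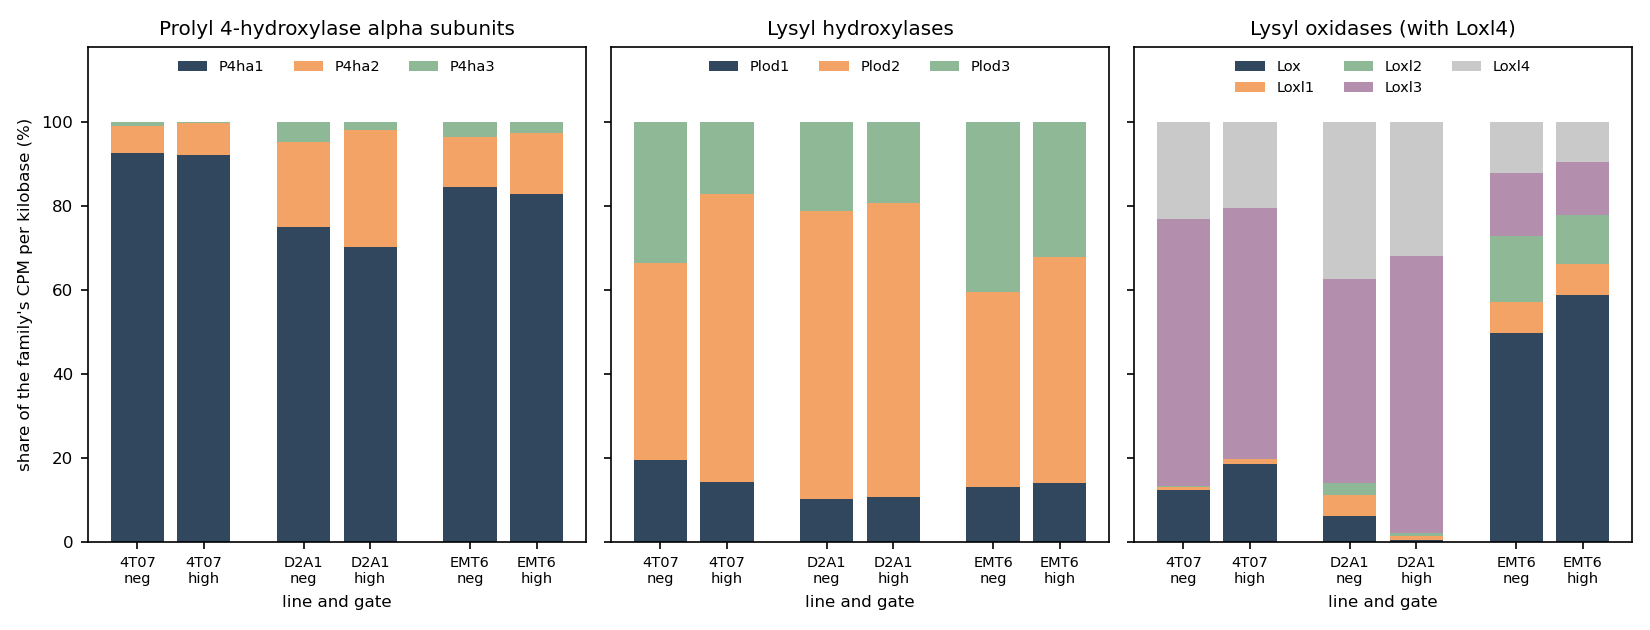
Share of each gene in the summed level of its family (vertical axis, percent of CPM per kilobase, mean of 4 libraries) in both gates of each line, for prolyl 4-hydroxylase alpha subunits, lysyl hydroxylases and lysyl oxidases. Plod2 takes 68.6% in 4T07 p27K high cells against 47.0% in negative cells, and Lox takes 58.8% in EMT6 p27K high cells but 0.499% in those of D2A1.

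Other genes of collagen processing were called in both directions, near the shares of all genes tested. The list of partners holds chaperones, prolyl 3-hydroxylases, propeptidases and their enhancers, and also P4hb, Colgalt1, Mia3 and Loxl4. Of 17 tested partners 2 were higher and 3 lower in 4T07, where 22.1% and 23.6% of all genes tested were. Of 17 in D2A1 3 were higher and 2 lower, against 14.9% and 14.7% of all genes. Of 18 in EMT6 5 were higher and 4 lower, against 24.1% and 25.1%. Their median log2 change was -0.15, 0.05 and 0.04. Fkbp14, a peptidyl-prolyl isomerase of the endoplasmic reticulum, was higher in 4T07 (1.17) and EMT6 (0.53), and in 4T07 the prolyl 3-hydroxylase P3h1 was higher (0.39). P3h3, which acts with Plod1 in a complex, was higher in D2A1 (0.75) and EMT6 (0.47), as was P3h4, a member of the same complex, in D2A1 (0.66). The collagen chaperone Fkbp10 was lower in 4T07 (-0.80) and EMT6 (-0.20), and the procollagen propeptidase Adamts14 was lower in 4T07 (-0.68). Pcolce2, an enhancer of propeptide removal, was lower in D2A1 (-0.68) and EMT6 (-1.06), and Mia3, needed for export of collagen from the endoplasmic reticulum, was lower in EMT6 (-0.22). The propeptidase Adamts2 was lower in D2A1 (-7.46), at 0.0306 CPM against 9.10 CPM, and passed the filter there through its level in the negative gate.

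For the substrates, collagens and elastic fibre proteins, the counts differed by line, which was not tested. In 4T07 2 of 18 tested were higher and 6 lower, in D2A1 3 and 6 of 17, and in EMT6 9 and 2 of 17, with medians of -0.35, 0.15 and 0.38 (log2). Of all genes tested, 22.1% were called higher and 23.6% lower in 4T07, 14.9% and 14.7% in D2A1, and 24.1% and 25.1% in EMT6. Col5a2, a chain of collagen V, was lower in all 3 lines (-1.32 in 4T07, -5.97 in D2A1 and -1.51 in EMT6). It was scarce in the p27K high gate, with means of 1.23, 0.405 and 1.56 CPM in these lines against 3.14, 28.3 and 4.85 CPM. In D2A1 Col5a2 passed the filter through its level in the negative gate. Its partner chain Col5a1 was higher in D2A1 (1.06, 3132 CPM against 1501 CPM) and in EMT6 (0.51). Col6a1, of the beaded filament collagen VI, was higher in all 3 lines (0.36 in 4T07, 1.01 in D2A1 and 0.59 in EMT6), and Col11a2 was higher in 4T07 (1.16) and EMT6 (0.85). Col12a1, a fibril-associated collagen, was lower in 4T07 (-1.88) and higher in EMT6 (0.83). In D2A1 elastin (Eln), a substrate of Lox and Loxl1, was lower (-3.96), at 0.489 CPM against 8.36 CPM. Like Lox and Loxl1, Eln passed the filter there through its level in the negative gate, and a link between these falls was not tested. Fbn1, the microfibril protein fibrillin-1, was lower in all 3 lines (-0.42 in 4T07, -1.91 in D2A1 and -0.39 in EMT6).

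Targets of hypoxia, a list that holds none of the 10 genes, were nearly all higher. In 4T07 25 of 28 tested were higher and 1 lower, in D2A1 23 of 28 were higher and in EMT6 27 of 29 (medians 0.96, 0.90 and 0.57). Of all genes tested, 22.1%, 14.9% and 24.1% were called higher in these lines, and 23.6%, 14.7% and 25.1% lower. The growth arrest and stress gene Ndrg1 was higher by 1.79 on average over the lines and Vegfa, the endothelial growth factor, by 1.29. The peptide hormone gene Adm was lower on average (-1.05), but its lines went opposite ways. It was lower in 4T07 (-2.08), at 0.330 CPM against 1.46 CPM. In EMT6, where it was abundant, Adm was higher (0.69), at 175 CPM against 108 CPM, and in D2A1 it was not tested. Of the 8 tested genes of the HIF system itself, 3 were higher in 4T07, 4 in D2A1 and 5 in EMT6, and the others did not pass the test. Higher on average were Cited2, a HIF-induced inhibitor of HIF (0.85), and Vhl, which marks HIF alpha subunits for degradation (0.54). Of the TGF-beta signalling genes, 12 of 16 were higher and 2 lower in 4T07, and 5 of 17 were higher in D2A1 and 14 of 17 in EMT6. The co-receptor Tgfbr3 (1.52) was higher on average, and Tgfbi, a target of the pathway, was lower on average (-0.38). By line, Tgfbi was lower in 4T07 (-1.76), did not pass the test in D2A1 (-0.15) and was higher in EMT6 (0.58). For the cofactors, 2 of 5 genes of ascorbate and copper supply were higher and 1 lower in 4T07, 1 of 6 was higher in D2A1, and 3 of 6 were higher and 1 lower in EMT6. The HIF, TGF-beta and cofactor counts stand beside the same shares of all genes, and the 1 of 6 in D2A1 lay near its share. The ascorbate transporter Slc23a2 (0.56) and Atp7a (0.72), the pump that loads copper onto lysyl oxidases in the Golgi, were higher on average. These lists were drawn up with earlier results of the data known.

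**Figure D4:**
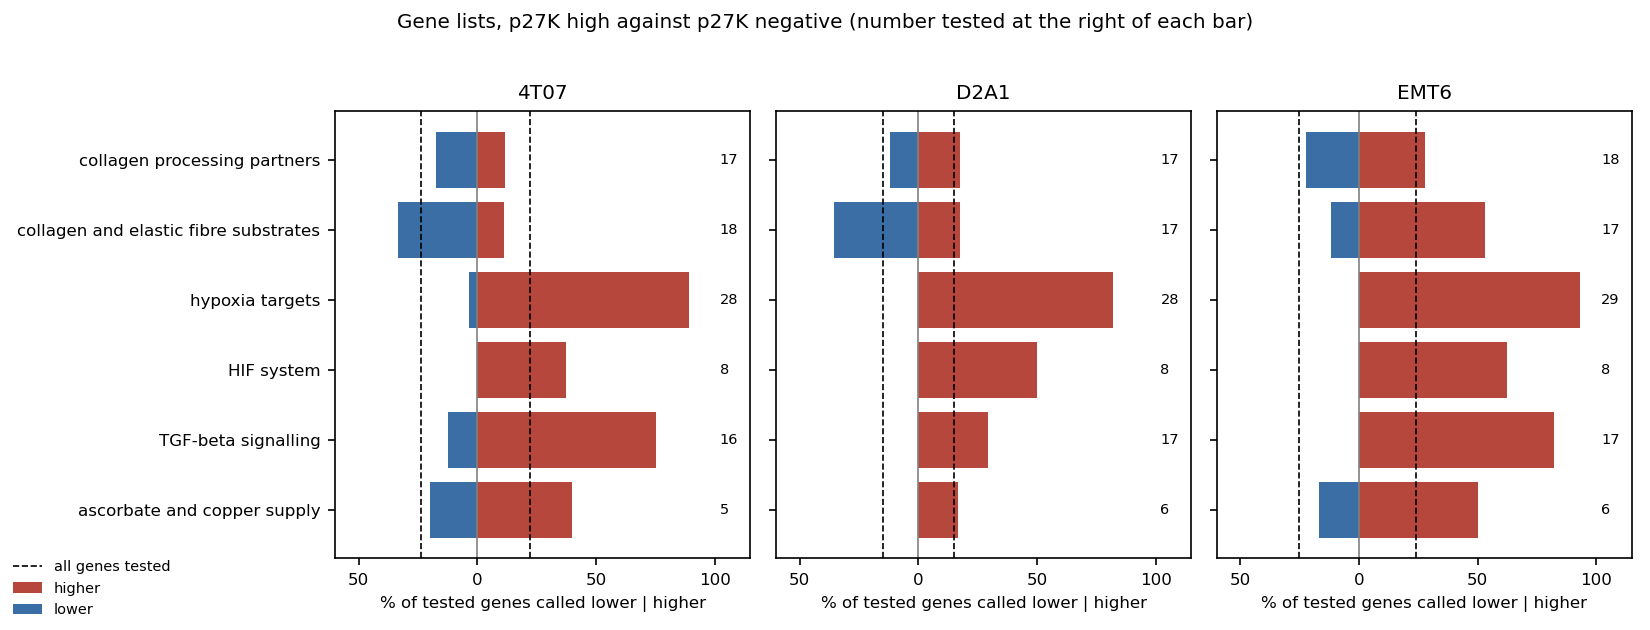
Percent of the tested genes of 6 lists called higher (right) or lower (left) in the p27K high gate in each line, with the number tested at the right and the shares of all genes tested as dashed lines. Hypoxia targets reach 25 of 28, 23 of 28 and 27 of 29 genes higher, whereas collagen processing partners stay near the dashed lines in each line.

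The genes whose change over the 12 tumours was most like that of each member were sought among 8770 genes with a mean of at least 5 CPM. The tumours of a line share a sequencing run and the lines differ in their changes, so these correlations carry the difference between lines and are given as a description. The nearest genes were Dnaja1 for P4ha1 (Pearson r = 0.957), Ankmy2 for P4ha2 (0.937), Ap5z1 for P4ha3 (0.939), Bcor for Plod1 (0.862), Gclc for Plod2 (0.980) and Tmem222 for Plod3 (0.970). For the lysyl oxidases they were Srf for Lox (0.949), Psat1 for Loxl1 (0.946), Tmem97 for Loxl2 (0.943) and Gusb for Loxl3 (0.984). Within a line, over 4 tumours, these pairs ran the opposite way in EMT6 for Lox with Srf (-0.924), Loxl1 with Psat1 (-0.516) and P4ha1 with Dnaja1 (-0.472). The second nearest were, in the same order, Me1, Asb3, Wdr62, Wnt7b, Pdcl, Mrpl4, Fbn1, Cdr2, Eef2 and Ncapg.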

How the data were processed

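Gene expression was measured by RNA-seq in 24 libraries of sorted tumour cells. Per the labels' protocols, tumours were digested for 20 min, passed through a 100 µm strainer, stained for CD45 and with DAPI and sorted, RNA was taken with the miRNeasy Micro kit, and GENEWIZ sequenced it and made the tables. The submitters' processing notes name mm10 and DESeq2. Aligner, counter, kit, strand use and gates: not given in the sources used here. Reads of overlapping or antisense genes may therefore be mixed. The authors deposited whole-number counts per gene, not normalized, in a table per line.

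From these counts, rows that name no gene (at most 0.0109% of a library's counts in D2A1 and 0.00885% in EMT6), the totals row and 4 rows per table with a date for a symbol were left out, and rows of the same symbol were summed. Each line was fitted with edgeR 4.0.16 (R 4.3.3), TMM scaling, filterByExpr (a minimum of 10 reads) and the tumour as a block, and p-values were adjusted by Benjamini-Hochberg over all genes tested. CPM use the TMM library sizes of the line. The SE is the size of the change over the square root of F. The difference per tumour is of log2 CPM with a prior count of 2. A joint fit with 12 tumours as blocks gave averages and the tests between lines. The scripts were tested on simulated data. Alternatives were DESeq2 1.42.0, other scalings and filters, no block, 1 fit of all libraries and leaving out each tumour or line.

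The labels pair the gates of a tumour in 4T07 and D2A1. EMT6 columns carry other numbers than the titles and were paired by these. Same-numbered libraries deviated together, with r of 0.195 to 0.801 in 4T07, 0.0834 to 0.294 in D2A1 and 0.574 to 0.813 in EMT6, and the correlation with another number was always lower. The p-values thus rest on how much tumours differ in the change, and limits from counts cover counting error only.

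Members and gene lists were chosen with earlier results of these data known. The text names the 10 genes, Cdkn1b, Mki67 and Loxl4, per line the 2 highest and 2 lowest called partners and substrates, for the other lists the 2 called genes of smallest average p in each direction, the 2 genes most like each member, and the leading gene of a marker list. Of 4 pericyte and muscle markers, 2 were tested in 4T07 and 1 each in D2A1 and EMT6, and none was called. No adipocyte marker was tested in any line, so none could be called. Promoters are RefSeq's, gene positions GENCODE's, both on GRCm38.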

Additional observations from a re-analysis of the deposited data

Results flagged for a closer look

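In 4 of 60 groups of 4 libraries, 1 library stood far from the other 3 by Dixon's test at the 95% level, which chance alone reaches in about 1 in 20 groups. Lox in the D2A1 p27K high gate was highest in tumour 2, at 2.39 CPM, with 0.275 to 0.401 CPM in the others, and Loxl2 in the same gate was highest in tumour 3, at 1.55 CPM, with 0.803 to 0.919 CPM in the others. Both rest on few reads, 39 for Lox and 10 for Loxl2. In the 4T07 p27K high gate tumour 2 was lowest for Plod1, at 141 CPM against 190 to 195 CPM, and for Plod3, at 95.4 CPM against 155 to 159 CPM. The same library had the fewest genes detected of its group (13500).

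The change between the gates differed between the 3 lines for 8 genes by edgeR's F test in the joint fit. The adjusted p was 0.000514 for P4ha1, 0.000637 for P4ha2, 0.00190 for P4ha3, 5.35e-05 for Plod2, 0.000214 for Lox, 0.000112 for Loxl1, 0.00118 for Loxl2 and 0.000125 for Loxl3. For Lox, every D2A1 tumour was lower in the p27K high gate and every EMT6 tumour higher.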

How the results depend on the processing

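Of 405 changes of members under alternatives, 377 kept direction and side of the threshold, 16 lost their call, 7 gained one and 5 turned direction. The number of members called lower in 4T07 went from 2 to 1 with DESeq2 size factors in edgeR, without a filter on low counts, with a mean of at least 5 CPM and without the block that pairs the gates of a tumour, and was 1 to 3 when a tumour was left out. The number lower in D2A1 went from 3 to 1 with a mean of at least 5 CPM, which removed Loxl1 and Loxl2 from the test, and the number higher there was 3 to 5 when a tumour was left out. Without D2A1 the number lower on average went from 4 to 2, and the averages turned to 0.49 for Lox, 0.48 for Loxl1, -0.0039 for Plod3 and -0.037 for Loxl3. The change of Plod3 in 4T07 was -0.20 to 0.055 when a tumour was left out, with 0.055 without tumour 2. Without the block, Loxl1 and Loxl3 also lost their calls on average (edgeR adjusted p = 0.103 and 0.0508). The 8 genes whose change differed between lines numbered 8 in all 17 alternatives run for that test. Scaling by total counts moved the median of all genes in 4T07 to -0.14 and the share of calls that were higher from 48.3% to 33.2%, and on average from 54.1% to 40.9%, with no change in any count of members. Over all genes, calls went from 5868 to 3698 in 4T07 without tumour 1, from 3794 to 2444 in D2A1 without tumour 1, and from 6567 to 4058 in EMT6 with all 24 libraries in 1 fit; leaving out a tumour leaves 6 libraries. Depth limits the low genes: Lox, Loxl1 and Loxl2 in D2A1 and P4ha3 and Loxl2 in 4T07.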
